A study of Rattus norvegicus with 36 samples.

Results

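The enzymes of bile acid synthesis described here are 7 genes, Cyp7a1, Cyp8b1, Hsd3b7, Akr1d1, Cyp27a1, Cyp7b1 and Slc27a5. They were chosen by symbol in the array's annotation, which gave 8 probe sets out of 31042 tested and 7 genes out of 14217 named. Akr1d1 had 2 probe sets and each other gene had 1. The samples were livers of male Harlan Sprague Dawley rats, aged 7 weeks when dosing began and fed NTP-2000 diet. The rats received hexabromocyclododecane (HBCD), a brominated flame retardant, in corn oil by gavage on 5 consecutive days, and the left lobe was taken 1 day after the last dose. The 36 arrays formed 6 groups of 6, a corn oil vehicle group and groups at 0.06 and 0.641 mg/kg, at 6.41 and 64.1 mg/kg, and at 641 mg/kg HBCD. The labels give replicate numbers without stating whether different rats stand behind them. The p-values therefore refer to the variation among these samples, part of which may be technical.

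Hepatocytes turn cholesterol into bile acids through hydroxylation of the sterol ring, reduction of the ring, oxidation of the side chain, and joining to taurine or glycine. The classic route starts with Cyp7a1, whose step limits the rate and whose transcript is known to follow the time of day, feeding and the return of bile acids from the gut. An alternative route starts with oxidation of the side chain by Cyp27a1 and continues through Cyp7b1, and both routes share the later enzymes.

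All levels are log2 probe set values, on which a difference of 1 is a doubling, and they are not compared between genes because each probe set has its own response. A probe set was called where the adjusted p of the linear model, fitted with limma to all probe sets and arrays, was under 0.05. Array medians lay between 4.829 and 4.899, and correlations across probe sets between arrays of 1 group were 0.991 to 0.997. Of the markers of hepatocytes, 6 of 7 were measured, with a mean level of 13.73 to 13.79 in the vehicle arrays and of 13.63 to 13.72 at 641 mg/kg. Each array at 641 mg/kg thus lay below each vehicle array, with a median log2 difference of -0.07 over the 6 markers. By limma 0 of 6 were called at 641 mg/kg, and 3 passed an unadjusted p under 0.05, as did 3549 of all 31042 probe sets.

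Promoters were in the RefSeq table (assembly GRCr8) for 4 of the 7 enzymes, Cyp8b1, Hsd3b7, Cyp27a1 and Slc27a5, and not for Cyp7a1, Akr1d1 and Cyp7b1. The 250 bases before the start site are printed for Slc27a5, the enzyme that fell, and for Cyp27a1. Of the enzymes, Cyp27a1 had the highest correlation with Cyp7a1 between arrays, which passed as Spearman rho and not as Pearson r. The Slc27a5 promoter lies on the minus strand at chr1:82699336-82699585 and that of Cyp27a1 on the plus strand at chr9:83713282-83713531, and capitals mark matches to the motifs searched.
Slc27a5: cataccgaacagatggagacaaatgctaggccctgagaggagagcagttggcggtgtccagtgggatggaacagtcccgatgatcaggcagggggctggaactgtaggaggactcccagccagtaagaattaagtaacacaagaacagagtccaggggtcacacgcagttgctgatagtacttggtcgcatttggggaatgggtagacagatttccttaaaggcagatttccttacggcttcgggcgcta
Cyp27a1: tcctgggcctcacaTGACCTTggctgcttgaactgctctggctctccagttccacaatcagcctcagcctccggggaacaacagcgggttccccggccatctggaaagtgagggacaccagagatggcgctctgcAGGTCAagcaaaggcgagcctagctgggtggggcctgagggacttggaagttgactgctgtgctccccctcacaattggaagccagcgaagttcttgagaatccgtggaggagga
Both strands were searched for the nuclear receptor half-site AGGTCA, its longer form AAGGTCA, which contains it, the E-box CACGTG and the TATA element TATAAA. Cyp27a1 held AGGTCA at bases -115 to -110 on the strand of the gene and AAGGTCA at -236 to -230 on the opposite strand. Slc27a5, Cyp8b1 and Hsd3b7 held 0 of the 4 motifs, which says only that these letters are not in this window. Of 33469 rat promoters of this length, 14.1% held AGGTCA, 3.99% AAGGTCA, 5.59% CACGTG and 12.9% TATAAA.

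At 641 mg/kg, 1 of the 7 enzymes rose and 1 fell, and the other 5 were not called. Akr1d1, the reductase that saturates the sterol ring, rose 1.35-fold (95% confidence interval 1.26 to 1.45; limma adjusted p = 1.91e-07). Slc27a5, the ligase that activates bile acids with coenzyme A ahead of conjugation, was 1.27-fold lower (1.15 to 1.40; adjusted p = 0.00349). Over all probe sets at this dose, 1.13% were called higher and 0.512% lower. The median log2 difference from vehicle was -0.0236 for the 7 enzymes, with a range from -0.35 to 0.47, and -0.0073 for all probe sets. These are extracts of whole liver, in which fewer cells of a type and less RNA per cell cannot be told apart.

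**Figure D1:**
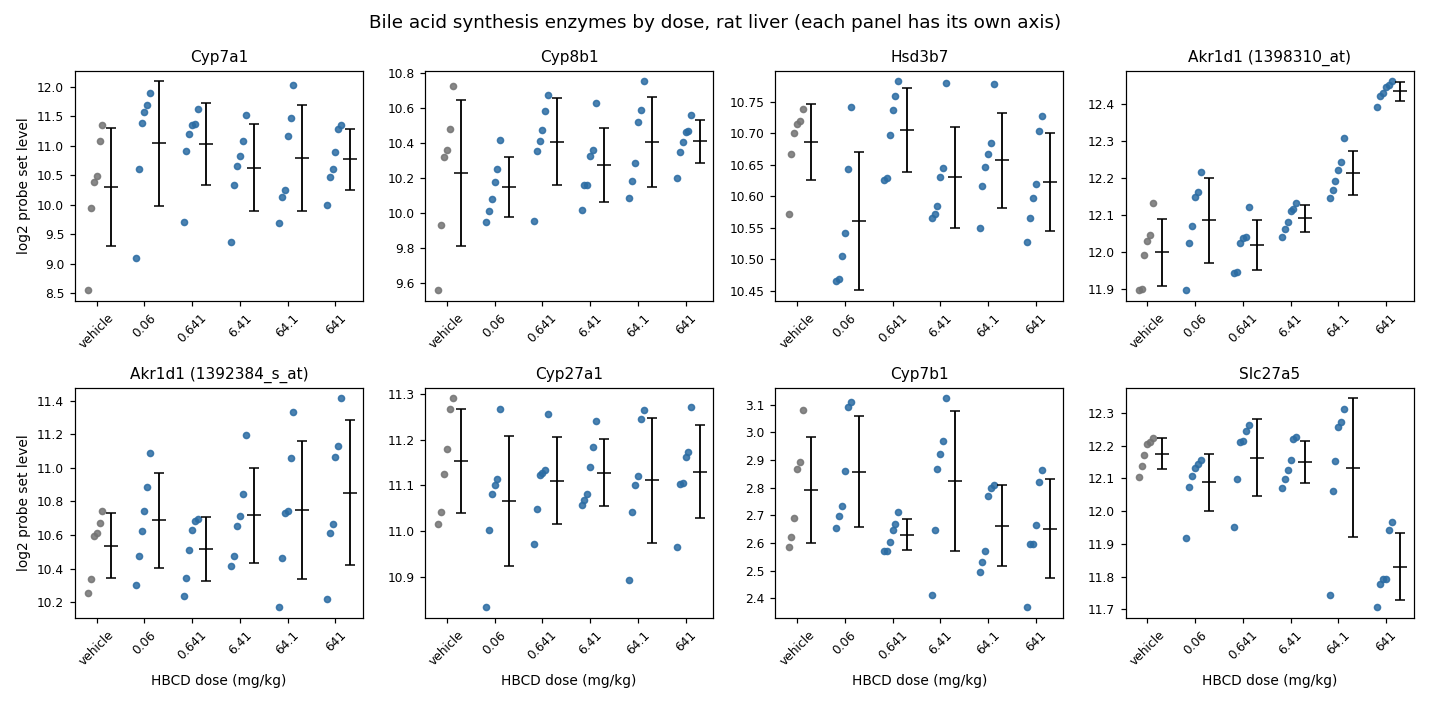
Log2 level of each of the 8 probe sets (vertical axis, scaled separately in each panel) by HBCD dose in mg/kg (horizontal axis); each point is 1 array, drawn in order of its value, with grey for vehicle, and the bar beside each group is the mean ± SD (n = 6). The 6 arrays at 641 mg/kg stand above all others for Akr1d1 (1398310_at) and near the bottom for Slc27a5, while Cyp7a1 varies over 1.34 to 2.80 log2 units within groups.

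Of the ring enzymes, Akr1d1 was the one called. It had its highest group means at 64.1 and 641 mg/kg, while those of the 3 lower doses were not in order of dose. Its brighter probe set, 1398310_at, had a lowest, median and highest level of 11.90, 12.01 and 12.13 in vehicle. The corresponding levels were 11.90, 12.11 and 12.21 at 0.06 mg/kg, 11.94, 12.03 and 12.12 at 0.641 mg/kg, and 12.04, 12.10 and 12.13 at 6.41 mg/kg. They were 12.14, 12.21 and 12.31 at 64.1 mg/kg and 12.39, 12.44 and 12.46 at 641 mg/kg. The 6 arrays at 641 mg/kg lay above all 30 others, and the arrays at 64.1 mg/kg lay above every vehicle array, whereas the 3 lower doses overlapped vehicle. The group means were 11.999 ± 0.091 in vehicle and 12.434 ± 0.025 at 641 mg/kg (SD, n = 6).

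The level of Akr1d1 at 64.1 mg/kg was 1.16-fold of vehicle (1.08 to 1.24), with an adjusted p of 0.116 from limma, which is not called. An exact two-sided permutation test of these 6 against 6 arrays gave p = 0.00216, unadjusted, the smallest value that 924 splits allow. The same limma contrast was called in 2 of 12 alternative settings, where adjusted p ran up to 0.654. Those 2 were with dim probe sets left out and with a trended and robust variance (adjusted p = 0.0185 and 0.0190). At this dose 0.0419% of all probe sets were called higher and 0% lower, and 0 of the 7 enzymes were called by limma. At an unadjusted p under 0.05 there were 1843 probe sets, with 1 of the 8 of the enzymes, that of Akr1d1. Between 64.1 and 641 mg/kg, Akr1d1 rose a further 1.17-fold (1.09 to 1.25; limma adjusted p = 0.0340). The share of all probe sets called in that contrast was 0.19% higher and 0.0515% lower.

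Across the 6 ordered groups, Akr1d1 gained 0.08 log2 units per dose step (0.06 to 0.09; limma adjusted p = 1.03e-07). Slopes were called upward in 0.902% of all probe sets and downward in 0.445%. The second Akr1d1 probe set, 1392384_s_at, had group means from 10.52 ± 0.19 at 0.641 mg/kg to 10.85 ± 0.43 at 641 mg/kg and was not called (1.24-fold at 641 mg/kg, 0.981 to 1.58; adjusted p = 0.496). Its pooled SD within groups was 0.31, against 0.07 for the brighter probe set, and its intervals hold the changes measured by the other. The probe sets pointed the same way at 641 mg/kg. At 64.1 mg/kg 1392384_s_at stood at 1.16-fold of vehicle (0.913 to 1.47; limma adjusted p = 0.946), and its arrays overlapped those of vehicle. When the values of both were averaged before testing, Akr1d1 kept its call at 641 mg/kg (adjusted p = 0.0113) and lost that of the F test over the 5 doses (adjusted p = 0.0743).

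**Figure D2:**
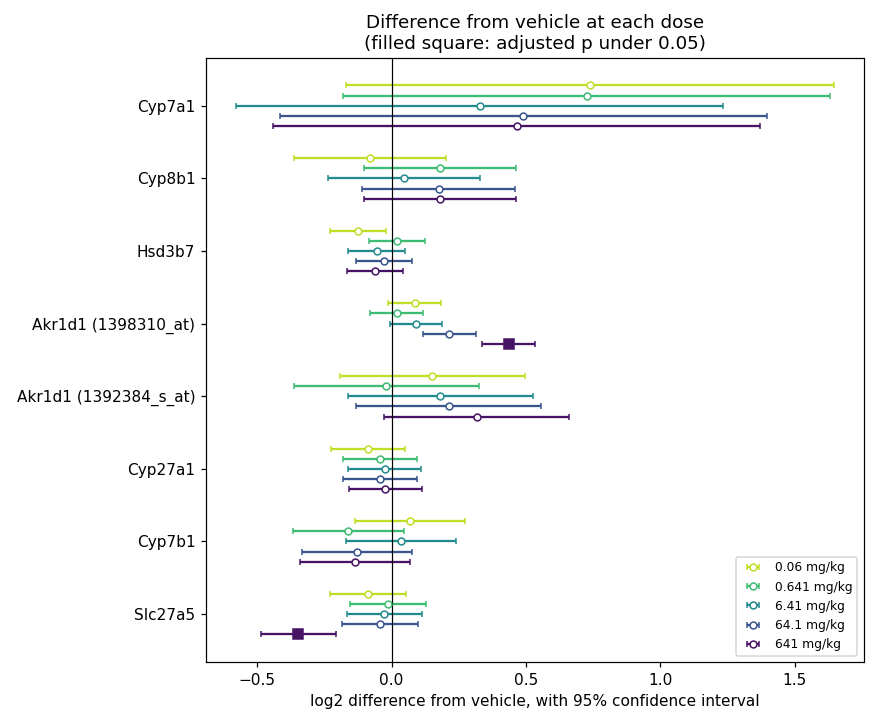
Log2 difference from vehicle (horizontal axis) of each probe set at the 5 doses, with 95% confidence intervals from the fit over all 36 arrays; filled squares have an adjusted p under 0.05. The filled squares are Akr1d1 (1398310_at) and Slc27a5 at 641 mg/kg, and the intervals of Cyp7a1 are the widest of the 8 probe sets.

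Slc27a5 was not called up to 64.1 mg/kg and was lower at 641 mg/kg. Its lowest, median and highest levels were 12.10, 12.19 and 12.22 in vehicle, 11.92, 12.12 and 12.16 at 0.06 mg/kg, and 11.95, 12.21 and 12.26 at 0.641 mg/kg. They were 12.07, 12.14 and 12.23 at 6.41 mg/kg, 11.74, 12.20 and 12.31 at 64.1 mg/kg, and 11.71, 11.79 and 11.97 at 641 mg/kg. The 641 mg/kg and vehicle arrays did not overlap, and of the 30 other arrays 3 lay at or below the highest array at 641 mg/kg. Those were replicate 3 of 64.1 mg/kg and replicates 4 of 0.06 and 0.641 mg/kg. The mean was 12.18 ± 0.05 in vehicle and 11.83 ± 0.10 at 641 mg/kg (SD, n = 6).

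From 64.1 to 641 mg/kg, Slc27a5 was 1.23-fold lower (1.12 to 1.36; limma adjusted p = 0.0435), although those groups overlapped. At 64.1 mg/kg itself it stood at 0.971-fold of vehicle (0.880 to 1.07; adjusted p = 0.983). Its slope fell by 0.05 log2 units per dose step (adjusted p = 0.0355). That slope lost its call in 12 of 36 fits that each left out 1 array, with adjusted p-values up to 0.0775, and with arrays centred on their medians (adjusted p = 0.0542). In the F test over the 5 doses, which called 0.773% of all probe sets, 2 of the 7 enzymes passed, Akr1d1 (adjusted p = 5.08e-07) and Slc27a5 (adjusted p = 0.0207). The F test of Slc27a5 was lost without replicate 1, 2, 3 or 4 of 641 mg/kg (adjusted p between 0.0778 and 0.108), while both calls at 641 mg/kg against vehicle held in all 36 fits without 1 array (largest adjusted p 1.38e-06 and 0.0131).

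Some markers of hepatocytes in zones of the liver lobule also fell at 641 mg/kg, where 0.512% of all probe sets were called lower and 1.13% higher. Of 7 measured perivenous markers, Cyp1a2, Oat and Glul, the latter in 1 of 3 probe sets, fell. The other 4 were not called, with log2 differences of 0.05 for Cyp2e1, 0.24 for Slc1a2, 0.08 for Lgr5 and 0.10 for Axin2, and the median of the list was 0.05. The mean level of the list lay between 8.74 and 9.03 in vehicle and between 8.48 and 8.85 at 641 mg/kg. Of 6 periportal markers, with a median log2 difference of -0.30, Ass1 fell and 5 were not called, with list means between 9.76 and 10.16 in vehicle and between 9.47 and 9.85 at 641 mg/kg. Among 43 measured markers of 9 other cell types, 1 fell at 641 mg/kg and 0 rose. The one that fell was the lymphocyte gene Cd8a, in 1 of 3 probe sets and at a mean level of 4.82. The part of these markers, and of the general hepatocyte markers above, in the changes of Akr1d1 and Slc27a5 was not tested.

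No enzyme was called at the 3 lower doses, where limma called 0% of probe sets in either direction. At an unadjusted p under 0.05 the counts over all probe sets were 1293 at 0.06 mg/kg, 1477 at 0.641 mg/kg and 1282 at 6.41 mg/kg. Of the 8 probe sets of the enzymes, 1, 0 and 0 were among them. The one at 0.06 mg/kg was Hsd3b7, the dehydrogenase that oxidises the ring after its hydroxylation, at 0.917-fold of vehicle (0.853 to 0.987; limma adjusted p = 0.999).

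Cyp7a1, the rate-limiting hydroxylase, was not called at any dose. Its largest log2 difference from vehicle, 0.74, had a standard error of 0.446, and the pooled SD between single arrays of a group was 0.84. In vehicle its lowest, median and highest levels were 8.55, 10.44 and 11.35. They were 9.09, 11.48 and 11.89 at 0.06 mg/kg, 9.70, 11.28 and 11.63 at 0.641 mg/kg, and 9.37, 10.74 and 11.52 at 6.41 mg/kg. They were 9.68, 10.71 and 12.03 at 64.1 mg/kg and 10.003, 10.75 and 11.35 at 641 mg/kg. All 6 groups overlapped, since each held arrays between 10.003 and 11.35.

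The group mean of Cyp7a1 was 10.30 ± 0.99 in vehicle, the lowest of the 6, and 11.04 ± 1.05 at 0.06 mg/kg, the highest. The means between them were 10.63 ± 0.73 at 6.41 mg/kg, 10.77 ± 0.51 at 641 mg/kg, 10.79 ± 0.90 at 64.1 mg/kg and 11.03 ± 0.69 at 0.641 mg/kg (SD, n = 6). Neighbours in this order differed by less than their SDs, which describe the spread of single arrays and not that of the means. Against vehicle the level was 1.67-fold at 0.06 mg/kg (0.890 to 3.13), 1.65-fold at 0.641 mg/kg (0.883 to 3.10) and 1.25-fold at 6.41 mg/kg (0.669 to 2.35). It was 1.40-fold at 64.1 mg/kg (0.749 to 2.63) and 1.38-fold at 641 mg/kg (0.737 to 2.59). Limma adjusted p-values ran from 0.781 to 1.00, and exact permutation tests gave unadjusted p-values from 0.165 to 0.528.

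All 5 means lay above the vehicle mean, which the doses share as their control. Without replicate 2 of vehicle, the array with the lowest Cyp7a1, the same contrasts became 1.31-fold, 1.298-fold, 0.985-fold, 1.10-fold and 1.08-fold in order of dose. Of 30 treated arrays, 10 lay above the highest vehicle array and 0 below the lowest. The slope was 0.03 log2 units per dose step (-0.12 to 0.19; limma adjusted p = 0.941). All 5 intervals include both no change and a doubling.

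Of 10 markers of macrophages 8 were measured, with a median log2 difference of -0.47 at 64.1 mg/kg. At this dose 0 were called by limma and 8 passed an unadjusted p under 0.05, as did 1843 of all 31042 probe sets. The mean macrophage marker level of replicates 1 to 6 was 8.53, 7.93, 7.66, 7.86, 8.68 and 8.50, and their Cyp7a1 levels were 10.14, 11.17, 11.48, 12.03, 10.25 and 9.68. The 3 arrays with the lowest macrophage levels thus had the highest Cyp7a1 of that group. The other 30 arrays had macrophage means from 7.85 to 9.14, and within groups over all 36 arrays the correlation with Cyp7a1 was 0.07. Leaving those 3 arrays out removes the highest Cyp7a1 levels of the group, so its mean had to fall. Its log2 difference at 64.1 mg/kg turned from 0.49 to -0.28, which therefore carries no information about the markers. That of Slc27a5 went from -0.04 to 0.02. The part of these markers in the spread of Cyp7a1 was not tested.

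**Figure D3:**
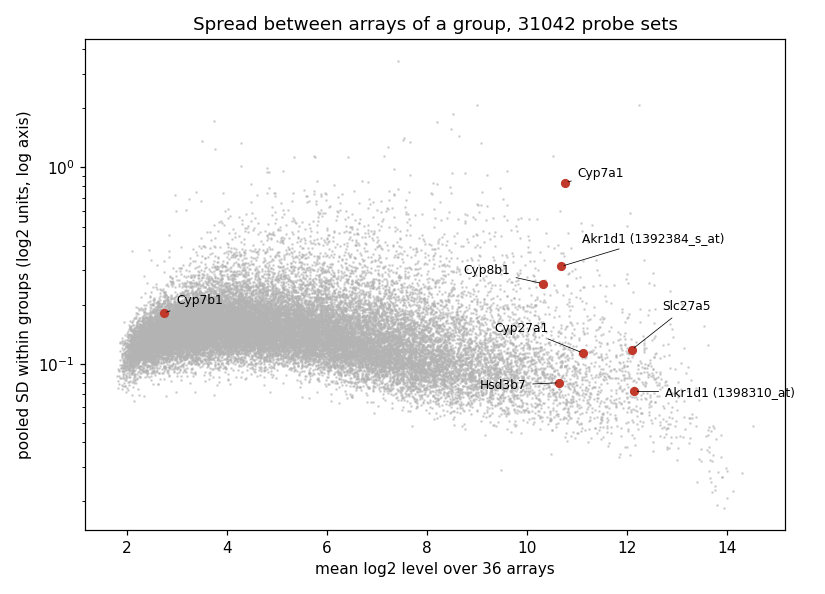
Pooled SD within groups (vertical log axis, log2 units) against mean log2 level over 36 arrays (horizontal axis) for 31042 probe sets; grey points are all probe sets and red points the 8 of the enzymes. Cyp7a1 lies near the top of the cloud at its level, while Hsd3b7 and Akr1d1 (1398310_at) lie among the low spreads.

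Over all 36 arrays Cyp7a1 ranged from 8.55 to 12.03, which is 11.1-fold. Replicate 2 held the lowest level of its group in vehicle, at 0.06 and at 6.41 mg/kg (8.55, 9.09 and 9.37). Those were the lowest of all 36 arrays. At 0.641, 64.1 and 641 mg/kg replicate 2 stood at 10.91, 11.17 and 10.60. Whether the replicate number had a part in the spread was not tested. The range within a group was 6.95-fold in vehicle and at 0.06 mg/kg, 3.80-fold at 0.641 mg/kg, 4.43-fold at 6.41 mg/kg, 5.08-fold at 64.1 mg/kg and 2.54-fold at 641 mg/kg. Its pooled SD within groups was 0.84, and 37 of the 31042 probe sets had a larger one, so 99.9% lay below it. Among the 11258 probe sets with a mean of at least 6 in some group, 27 had a larger SD, and the median SD was 0.12. When the highest and the lowest array of each group were left out for every probe set, the SD of Cyp7a1 was 0.44 and 71 probe sets exceeded it. Cyp7a1 thus ranked near the top with and without the extreme arrays of each group.

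The other enzymes spread less than Cyp7a1. The pooled SD was 0.26 for Cyp8b1, 0.18 for Cyp7b1, 0.12 for Slc27a5, 0.11 for Cyp27a1 and 0.08 for Hsd3b7. For Akr1d1 it was 0.07 in 1398310_at and 0.31 in 1392384_s_at. The SDs of Cyp8b1 and of 1392384_s_at were still above those of 94.7% and 97.3% of all probe sets. Cyp8b1, the hydroxylase that sets the share of cholic acid, had group means from 10.15 ± 0.17 at 0.06 mg/kg to 10.41 ± 0.12 at 641 mg/kg. Its largest group SD was that of vehicle, at 0.42, where the arrays ranged from 9.56 to 10.72. At 641 mg/kg Cyp8b1 stood at 1.13-fold of vehicle (0.932 to 1.38; limma adjusted p = 0.697). Hsd3b7 had group means from 10.56 ± 0.11 at 0.06 mg/kg to 10.71 ± 0.07 at 0.641 mg/kg, and stood at 0.958-fold at 641 mg/kg (0.890 to 1.03; adjusted p = 0.726).

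Of the alternative route, Cyp27a1, the mitochondrial side chain hydroxylase, had group means from 11.07 ± 0.14 at 0.06 mg/kg to 11.15 ± 0.11 in vehicle. At 641 mg/kg it stood at 0.984-fold (0.895 to 1.08; limma adjusted p = 0.946), the closest to vehicle of the 7 enzymes. Cyp7b1, the oxysterol hydroxylase of that route, gave levels from 2.37 to 3.12, below the median of every array. A probe set that dim may be near background. It stood at 0.909-fold of vehicle at 641 mg/kg (0.789 to 1.05; limma adjusted p = 0.675).

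Between arrays of a group, Cyp7a1 was set against each of the other 6 enzymes, after removal of group means (n = 36 arrays). Cyp27a1 followed it most closely, with a Pearson r of 0.47 (permutation p = 0.0137; adjusted over the 6 pairs, p = 0.0823) and a Spearman rho of 0.52 (permutation p = 0.00358; adjusted, p = 0.0215). The correlation was positive in 5 of 6 groups, from -0.10 to 0.84. Without the 2 arrays farthest from the median of Cyp7a1, replicate 2 of vehicle and replicate 2 of 0.06 mg/kg, r was 0.60. For Cyp8b1, Hsd3b7, Akr1d1, Cyp7b1 and Slc27a5, r was -0.06, 0.09, 0.05, -0.0028 and -0.02, with permutation p-values adjusted over the 6 pairs of 0.988 each. Their rho lay between -0.04 and 0.10 (adjusted permutation p = 0.973 each), and without the same 2 arrays their r lay between 0.01 and 0.16. The enzymes called at 641 mg/kg, Akr1d1 and Slc27a5, thus had an r near 0 with Cyp7a1 over the 36 arrays. Within single groups of 6 arrays it ran from -0.75 to 0.70 for Akr1d1 and from -0.39 to 0.82 for Slc27a5.

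Genes whose pattern was most like that of Cyp7a1 were sought by the same measure, r of the deviations from group means over 36 arrays, among 7418 other genes with a mean of at least 6. The absolute r was 0.17 at the median gene and at least 0.8 in 34 genes. The 5 most positive were Rin2, an effector of small GTPases (0.90), the zinc finger factor Sall1 (0.88), the glycogen-binding protein gene Stbd1 (0.82), the repressor Bcl6 (0.82) and Jade1 (0.79). The 5 most negative were Ell, a factor of transcription elongation (-0.93), the mitochondrial carrier Slc25a30 (-0.93), the transcription factors Xbp1 (-0.89) and Cebpb (-0.89), and Rtp3 (-0.88). These values are a description, since the genes were picked by them and share the arrays, and 0 of the 10 were called at 641 mg/kg.

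For the leading genes r was also taken within each group, again as a description, since these genes were picked on the same arrays. Within groups r ran from -0.99 to -0.83 for Ell, from -0.98 to -0.82 for Slc25a30 and from 0.85 to 0.99 for Rin2. Without the 2 farthest arrays r was -0.91 for Ell, -0.91 for Slc25a30 and 0.91 for Rin2. Replicate 2 of vehicle, with the lowest Cyp7a1 of all arrays at 8.55, had the highest Slc25a30 at 11.16 and the highest Ell at 8.84. Replicate 4 of 64.1 mg/kg, with the highest Cyp7a1 at 12.03, had the lowest Slc25a30 at 7.43. Of the second probe sets, that of Slc25a30 gave -0.90 and that of Rin2 gave 0.55.

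**Figure D4:**
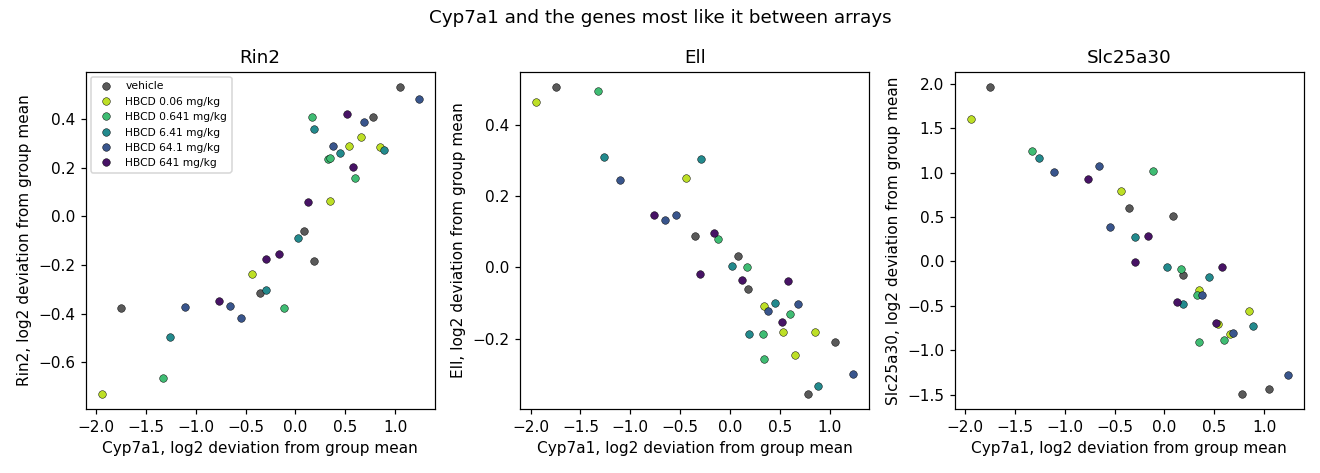
Deviation from the group mean (log2 units) of Rin2, Ell and Slc25a30 (vertical axes) against that of Cyp7a1 (horizontal axes); each point is 1 of 36 arrays, coloured by group. Rin2 rises with Cyp7a1, and Ell and Slc25a30 fall with it, in arrays of every group.

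Signs of RNA quality were set beside the same spread. The level at the 3-prime end minus that at the 5-prime end of the actin control had group means from 1.14 to 1.22 log2 units, and its deviations correlated with Cyp7a1 at -0.30. For the Gapdh control the group means lay between -0.03 and 0.01, with a correlation of -0.30. Their part in the spread of Cyp7a1 was not tested.

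The other genes of bile acid handling came from lists of synthesis, regulation, transport, cholesterol supply and the clock, of which 67 genes were measured. At 641 mg/kg 4 of them rose and 2 fell, while limma called 1.13% of the 31042 probe sets upward and 0.512% downward. At each of the other 4 doses 0 of the 67 genes were called by limma. Of 16 further enzymes of synthesis and the side chain, Por, which supplies electrons to microsomal P450s, rose 1.48-fold (1.27 to 1.73; limma adjusted p = 0.00268), in both of its probe sets. Amacr, the racemase of the side chain, was 1.21-fold lower (1.09 to 1.34; adjusted p = 0.0431). The median log2 difference of this list at 641 mg/kg was 0.01. At 64.1 mg/kg the 0 calls stood beside 4 synthesis genes, 1 regulator, 4 transporters, 0 genes of cholesterol supply and 1 clock gene at an unadjusted p under 0.05. Over all probe sets that count was 1843 of 31042.

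Each gene was counted by its brightest probe set. Of 16 regulators, 0 were called by limma at any dose by that count, although 1 of 2 probe sets of Mafg was called at 641 mg/kg. At that dose 3 regulators passed an unadjusted p under 0.05, as did 3549 of all 31042 probe sets. Nr0b2, the repressor that acts on Cyp7a1 when bile acids return, had the smallest F test p of the list and stood at 0.507-fold at 641 mg/kg (0.335 to 0.769; limma adjusted p = 0.0906). Its mean was 8.62 ± 0.35 in vehicle and 7.64 ± 0.68 at 641 mg/kg (SD, n = 6). Fgfr4, the receptor of the intestinal signal that lowers bile acid synthesis, stood at 0.879-fold (0.796 to 0.970; adjusted p = 0.232). The median of this list was -0.0090.

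Of 13 transporters, 3 rose at 641 mg/kg and 0 fell, beside 1.13% and 0.512% of all probe sets, with a list median of 0.28. Abcc3, the exporter on the blood side of hepatocytes, rose from 5.20 ± 0.37 to 7.59 ± 0.54 (5.26-fold, 3.92 to 7.07; limma adjusted p = 9.92e-10). The uptake carriers Slco1a4 and Slco1a1 rose 1.89-fold (1.65 to 2.16; adjusted p = 5.03e-08) and 1.27-fold (1.19 to 1.36; adjusted p = 1.71e-05). Of 6 genes of cholesterol supply, with a median of 0.21, Lcat was 1.13-fold lower (1.06 to 1.205; adjusted p = 0.0369) and Cyp51 stood at 1.24-fold (adjusted p = 0.149). Of 16 clock genes, with a median of 0.04, 0 were called by limma by their brightest probe set, while 1 of 3 probe sets of Tef was called. An unadjusted p under 0.05 was found for 3 of the 16, and for 3549 of all 31042 probe sets. Npas2 stood at 0.790-fold (0.678 to 0.922; adjusted p = 0.127) and Bhlhe41 at 1.03-fold (0.923 to 1.14; adjusted p = 0.909).

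**Figure D5:**
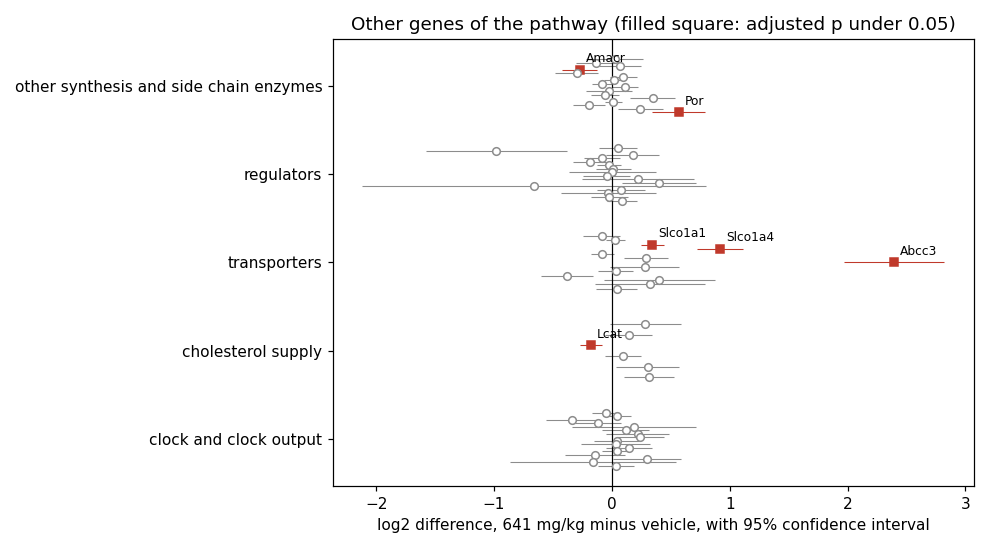
Log2 difference between 641 mg/kg and vehicle (horizontal axis) with 95% confidence intervals for the 67 measured genes of 5 lists around the pathway; red squares have an adjusted p under 0.05 and are named. Abcc3 lies farthest right at 5.26-fold, and Amacr and Lcat are the named genes to the left of 0.

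Some of these genes varied with Cyp7a1 between arrays. An absolute r of at least 0.5 was found in 3 of 15 synthesis genes, 3 of 14 regulators and 2 of 11 clock genes bright enough to be measured this way, and in 0 transporters and 0 genes of cholesterol supply. Over all 7418 genes the share was 5.85%. Picked for these values, the regulators were Onecut1 (-0.85), Cebpa (-0.78) and Nr5a2 (0.57), and the clock genes were Bhlhe40 (-0.77) and Npas2 (-0.53). The synthesis genes were the ferredoxin Fdx1 (0.59), which serves Cyp27a1, the reductase Akr1c14 (0.51) and Amacr (-0.54). Each r is from the brightest probe set of its gene. Onecut1, Cebpa, Nr5a2, Fdx1 and Akr1c14 have further probe sets, whose r is not given.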

How the data were processed

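Expression was measured in 36 rat liver samples on Affymetrix 3-prime arrays. The values the authors deposited are log2 levels, 1 per probe set. The submitters' processing notes name RMA and the R package affy, with no version. RMA normalizes arrays to each other, so a change shared by most transcripts would not be seen. No further normalization was applied. The number of arrays limits the precision, and the values carry no detection calls.

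Of 31099 probe sets, 57 controls were left out. The platform annotation gave 1 symbol to 20826 tested probe sets, several to 436 and none to 9780, and symbols were updated through RefSeq gene IDs. A gene with several probe sets was represented by the one with the highest mean. The series design names R/maanova at a false discovery rate of 5%; limma 3.58.1 in R 4.3.3 was used here, with group as the factor over all arrays, two-sided tests and Benjamini-Hochberg adjustment over 31042 probe sets within each contrast. Correlations used 100000 permutations within groups. The fit was also tested on simulated data. Genes outside the 7 enzymes were named if called at any dose or among the 2 smallest F test p-values of their list, or as the 5 most like Cyp7a1 each way. The enzymes, lists and tests were chosen with earlier results of these data known, and the contrast of 641 with 64.1 mg/kg was added after the data were seen. Arrays with the same replicate number did not deviate together across groups in the correlations between arrays of the closing part. Those correlations do not settle this for a single gene such as Cyp7a1. Alternatives covered scaling, filters, variance models, probe set averages and leaving out arrays.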

Additional observations from a re-analysis of the deposited data

Results flagged for a closer look

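In each of 48 groups of 6 arrays (8 probe sets in 6 dose groups), the gap between an extreme array and its nearest neighbour was divided by the range of the group, and values above Dixon's 95% critical value were marked. Chance marks about 1 in 20 groups, and 3 were marked here. Cyp7a1 at 0.641 mg/kg was lowest in replicate 4, at 9.70, with a gap of 0.627 of the range. Hsd3b7 at 6.41 mg/kg was highest in replicate 1, at 10.78, with a gap of 0.627. Slc27a5 at 0.06 mg/kg was lowest in replicate 4, at 11.92, with a gap of 0.657. None of these groups differed from vehicle in the fit of its enzyme, and the vehicle array with the lowest Cyp7a1, at 8.55, was not marked.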

How the results depend on the processing

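Akr1d1 and Slc27a5 kept their direction and their calls at 641 mg/kg in 11 of 11 settings, with log2 differences from 0.38 to 0.46 and from -0.37 to -0.32. The number of the 7 enzymes called changed in these settings. At 64.1 mg/kg it went from 0 to 1, Akr1d1, with probe sets of a group mean of at least 6 and with a trended, robust variance. The slope gave 1 in place of 2 with each array centred on its median, and from 1 to 2 with each array left out in turn. The F test gave 1 with the mean of the probe sets of a gene, where Akr1d1 was lost, and from 1 to 2 with each array left out. The SD of Cyp7a1 was 0.443 without the highest and the lowest array of each group. Same-numbered arrays of different groups did not deviate together (median correlation 0.02 over 90 pairs, from -0.25 to 0.32), and the replicate block moved none of the counts of called enzymes at the 5 doses, in the slope or in the F test. With the replicate block, Pearson correlations with Cyp7a1 passed for 1 enzyme in place of 0 (Cyp27a1, r = 0.58), whose Spearman rho passed without the block, and r became 0.169 for Cyp8b1 and 0.0820 for Slc27a5, while median centring made it 0.00473 for Cyp7b1.

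Signs turned only for differences that were not called. Hsd3b7 at 0.641 mg/kg was -0.00431 after repeated quantile normalization, and Akr1d1 at 0.641 mg/kg was -0.000192 as the mean of its probe sets. Without 3 arrays of 64.1 mg/kg, a setting chosen after seeing the data, Cyp7a1 there was -0.277 and Slc27a5 0.0203. Those arrays held the highest Cyp7a1 of the group, so its value had to fall. With each array left out in turn, the log2 difference of Cyp7a1 at 6.41 mg/kg ran from -0.0221 to 0.579. That of Cyp8b1 ran from -0.215 to 0.0182 at 0.06 mg/kg. At 6.41 mg/kg it ran from -0.0868 to 0.146, and that of Cyp7b1 at 6.41 mg/kg from -0.0258 to 0.116. At 0.641 mg/kg the ranges were -0.00329 to 0.0353 for Hsd3b7, -0.00145 to 0.0457 for Akr1d1 and -0.0324 to 0.0300 for Slc27a5. For Slc27a5 at 64.1 mg/kg it was -0.0792 to 0.0350. For Cyp27a1 the range was -0.0529 to 0.00221 at 6.41 mg/kg. At 64.1 mg/kg it was -0.0737 to 0.000708, and at 641 mg/kg -0.0519 to 0.00958. The cause was not tested beyond the construction of each setting. Rescaling moved the median of all probe sets by at most 0.0101.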
